A study of Mus musculus with 131 samples.

Results

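Accessible chromatin was mapped by ATAC-Seq in nuclei of liver hepatocytes of wild-type (WT) mice and of mice that lacked Tet2 and Tet3 in hepatocytes (DKO), with 2 libraries of each genotype. These are 4 of the 131 samples of the series. Peaks of the 4 deposited lists that overlapped by at least 1 bp were merged into 84705 regions, and every region was then described by which libraries held a peak there and by the height of that peak. The WT list of replicate 1 held 47639 peaks and that of replicate 2 held 57166, while the DKO lists held 50704 and 65515. All mice were of the C57Bl strain, and per the study the DKO mice carried floxed Tet2 and Tet3 alleles and received, 1 day after birth, an AAV8 virus with Cre recombinase under the hepatocyte-specific Tbg promoter. The labels call the other group wild type and name no injection for it, so the deletion and the virus with its Cre cannot be told apart in the ATAC-Seq comparison. Per the study, hepatocytes were obtained by collagenase digestion and a Percoll gradient and sorted by size and for absence of the leukocyte marker CD45. The labels name the ATAC-Seq tissue as liver and give no age for these mice, which per the study were adults of 15 weeks, and they do not say whether the 2 libraries of a genotype came from separate animals, so any test measures the spread between these libraries. Other readouts of the same series were laid over the regions. Whole-genome bisulfite sequencing (WGBS) had 1 library each of newborn WT (1 week), adult WT and adult DKO hepatocytes (both 15 weeks). H3K27ac and H3K4me1 ChIP-Seq had 1 library per genotype, also of 15 weeks. The DKO mice of these WGBS and ChIP-Seq libraries were injected at day 1, and the labels name no injection for their WT. Deletion and virus cannot be told apart in these comparisons either. HNF6 ChIP-Seq had 2 libraries per genotype and 5hmC immunoprecipitation had 1 WT library, with no age or injection in their labels. Per the study, the 5hmC DNA came from hepatocytes of mice of about 3 weeks, younger than the adults of the ATAC-Seq. RNA-Seq had 3 controls of 15 weeks that were injected with Cre at day 1 and 3 DKO mice of the same age and injection. These were compared in a fit over 18 RNA libraries. The others were WT of 1, 3 and 15 weeks with no injection in their labels, and controls and DKO of 15 weeks injected at 3 weeks. All of them entered the spread behind the RNA SE and p values and the choice of tested genes.

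In ATAC-Seq, the Tn5 transposase inserts sequencing adapters into DNA that is not wrapped tightly in nucleosomes, so that promoters, enhancers and other sites held open by bound factors give peaks. TET enzymes oxidise 5-methylcytosine to 5-hydroxymethylcytosine (5hmC), a step on the way to its replacement by unmethylated cytosine. In the liver many distal sites lose methylation after birth as hepatocytes mature, and hepatocyte factors such as HNF4A, HNF6, C/EBP and the FOXA proteins bind enhancers that carry H3K4me1 and, when active, H3K27ac.

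Stretches of 200 bp around the peak centres of 6 regions are given here, on the + strand of mm9 with every CpG in capitals, because the results turn on the CpG content and methylation of the regions. The first pair are the neighbouring WT and DKO peaks of one promoter, that of Mon1b. Next come a WT peak in an intron of Prodh and a DKO peak in an intron of Fnip2, each with no peak of the other genotype nearby. The last pair are the intergenic region of chromosome 16 with the largest fall in DKO and the CpG-free intron of Rwdd1 with the largest rise, among regions with a peak in all 4 libraries.
Mon1b WT peak, chr8:116159057-116159256: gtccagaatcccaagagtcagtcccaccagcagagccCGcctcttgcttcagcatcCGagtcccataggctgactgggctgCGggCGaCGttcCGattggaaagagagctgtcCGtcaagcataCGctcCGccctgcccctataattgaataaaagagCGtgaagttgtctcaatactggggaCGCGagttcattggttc
Mon1b DKO peak, chr8:116159267-116159466: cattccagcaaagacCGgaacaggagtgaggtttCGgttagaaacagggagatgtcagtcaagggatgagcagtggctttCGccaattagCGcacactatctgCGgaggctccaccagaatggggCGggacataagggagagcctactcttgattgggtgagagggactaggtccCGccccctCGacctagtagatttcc
Prodh WT peak, chr16:18083544-18083743: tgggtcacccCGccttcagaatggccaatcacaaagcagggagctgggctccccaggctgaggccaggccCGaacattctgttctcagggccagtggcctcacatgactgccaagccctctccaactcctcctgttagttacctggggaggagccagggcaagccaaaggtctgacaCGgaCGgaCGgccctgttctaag
Fnip2 DKO peak, chr3:79368916-79369115: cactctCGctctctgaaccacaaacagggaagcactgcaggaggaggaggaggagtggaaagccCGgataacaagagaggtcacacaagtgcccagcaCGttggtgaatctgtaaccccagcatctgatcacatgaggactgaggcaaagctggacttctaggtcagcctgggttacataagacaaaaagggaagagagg
Intergenic fall, chr16:10347746-10347945: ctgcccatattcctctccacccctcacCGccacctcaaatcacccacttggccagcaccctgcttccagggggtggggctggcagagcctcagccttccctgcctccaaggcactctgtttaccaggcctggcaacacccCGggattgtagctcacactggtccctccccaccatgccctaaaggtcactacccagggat
Rwdd1 rise, chr10:33718288-33718487: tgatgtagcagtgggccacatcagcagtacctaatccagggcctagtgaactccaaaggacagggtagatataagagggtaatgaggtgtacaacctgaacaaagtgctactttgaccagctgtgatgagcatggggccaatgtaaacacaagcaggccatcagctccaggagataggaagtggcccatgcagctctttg
The numbers of CpG in these stretches were 12 and 8 for the Mon1b peaks, 5 for Prodh, 3 for Fnip2, 2 for the chromosome 16 region and 0 for Rwdd1. Prodh and the chromosome 16 region stood at 65.6% and 63.9% CpG methylation in newborn hepatocytes, at 6.72% and 0.98% in adult WT and at 73.9% and 64.8% in DKO, whereas both Mon1b peaks stayed under 3% in all 3 WGBS libraries.

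The libraries did not fall into 2 genotypes as a whole. Totals were 73946606 and 54164080 tags in the WT libraries and 80940128 and 90249422 in the DKO libraries, of which between 5.15% and 6.04% lay in peaks. WT replicate 1 stood apart. Its peaks were the narrowest (131 bp, against 142 bp, 185 bp and 142 bp in WT replicate 2, DKO replicate 1 and DKO replicate 2), the largest share of them lay in promoters (28.8%, against 24.0%, 25.3% and 22.2%), and it held 991 peaks on the X chromosome and 0 on the Y, against 1669 to 1821 and 51 to 81 in the other libraries. Across the 30084 regions with a peak in all 4 libraries, log2 tag counts of the WT libraries correlated with Pearson's r of 0.71, and those of the DKO libraries with 0.91. WT replicate 2 was as close to DKO replicate 1 (0.92), and WT replicate 1 was closer to DKO replicate 2 (0.84) than to its own replicate. These correlations run over regions that share GC content and depth, and serve as a description. The difference in peak number between genotypes was smaller than the spread between replicates (DKO minus WT 5707 peaks, two-sided exact permutation test, p = 0.667). With 2 libraries against 2, the smallest p such a test can give is 0.333, so no value per library can pass a threshold of 0.05.

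The label of the tissue was checked at promoters of marker genes, a promoter being the 1 kb before a transcription start and the 100 bp after it. Of 12 hepatocyte markers, 8, 8, 8 and 10 had a promoter peak in WT replicates 1 and 2 and DKO replicates 1 and 2, with Hnf4a at tag counts of 32.3, 13.6, 11.8 and 19.9. The tag count of a peak is the number of tags in it, scaled by HOMER to a library of 10000000 tags. The markers Ttr and Apoa1 had none in any library. The sort removes cells with CD45. Of 10 Kupffer cell markers, 8 were in the annotation, of which 1 had a peak in WT replicate 1 and 0 in the others, and of 12 lymphocyte markers 1 had a peak in DKO replicate 2 and 0 in the others. None of the 8 neutrophil markers had one. Endothelial markers were present, at 7, 5, 4 and 8 of 10 promoters, as were 2 to 4 of 10 stellate cell markers and 2 of 8 cholangiocyte markers. For Tet2 the highest peak of the gene measured 29.1, 35.5, 32.4 and 33.1 and for Tet3 28.6, 25.6, 21.5 and 25.7. By RNA, Tet2 measured 2.13, 1.63 and 0.890 FPKM in the controls and 4.08, 2.82 and 3.16 FPKM in DKO, so that it was higher in DKO (log2 difference 0.79 ± 0.20 SE, limma adjusted p = 0.0172). Tet3 measured 2.11, 2.55 and 1.68 FPKM in the controls and 2.78, 1.74 and 2.65 FPKM in DKO (0.12 ± 0.15, limma adjusted p = 0.611). Neither peaks nor FPKM of the whole gene show the floxed exons, so they check neither the deletion nor the labels, and neither gene was lower in the libraries labelled DKO.

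The first question was which regions had a peak in one genotype and not in the other. A missing peak means that HOMER called none and not that the chromatin was closed. HOMER also filtered putative peaks by local signal. This took out 46.8% and 19.1% of putative peaks in WT replicates 1 and 2, and 26.8% and 33.1% in DKO replicates 1 and 2. The part of this filter in the missing peaks was not tested. The calling thresholds were 2.33 to 2.95 tags, and the median tag counts were 4.80 and 4.43 in WT-only and 3.77 and 3.6 in DKO-only regions, classes that are defined next. A peak in both WT lists and in neither DKO list (WT-only) was found at 2506 regions, which is 2.96% of all, and the reverse (DKO-only) at 4272, which is 5.04%. The largest class, 30084 regions or 35.5%, had a peak in all 4 libraries, and the remaining 47843 showed other mixtures, of which peaks of DKO replicate 2 alone (9603) and of the 3 libraries other than WT replicate 1 (9171) were the most frequent. DKO-only regions thus outnumbered WT-only regions 1.70 to 1, and this ratio moved with the number of peaks taken: with the same number of top-scoring peaks from each list, 2658 regions were WT-only and 2406 DKO-only.

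More than any other pattern of peaks, WT-only regions were methylated in DKO and not in adult WT. Methylation in DKO exceeded that in adult WT by at least 35 percentage points at 55.9% of WT-only regions (95% Wilson interval 54.0 to 57.9, 1374 of the 2457 with a WGBS value), against 10.9% of DKO-only regions (9.96 to 12.0, 398 of 3640), 9.34% of regions with a peak in all 4 libraries and 16.1% of every region. The intervals cover the counting of regions, which share the WGBS libraries, and not the spread between mice. Mean methylation of the WT-only regions went from 49.5% in newborn to 20.2% in adult WT and stood at 58.1% in DKO. The DKO-only regions went from 32.6% to 25.3% and stood at 36.9%, and regions with all 4 peaks were low throughout, at 15.0%, 8.64% and 18.2%. A postnatal loss of at least 35 points was seen at 40.8% of WT-only and 6.24% of DKO-only regions. The reverse change, a DKO level at least 35 points under adult WT, was found at 26 regions in the whole set, 0 of which were WT-only and 2 DKO-only.

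**Figure D1:**
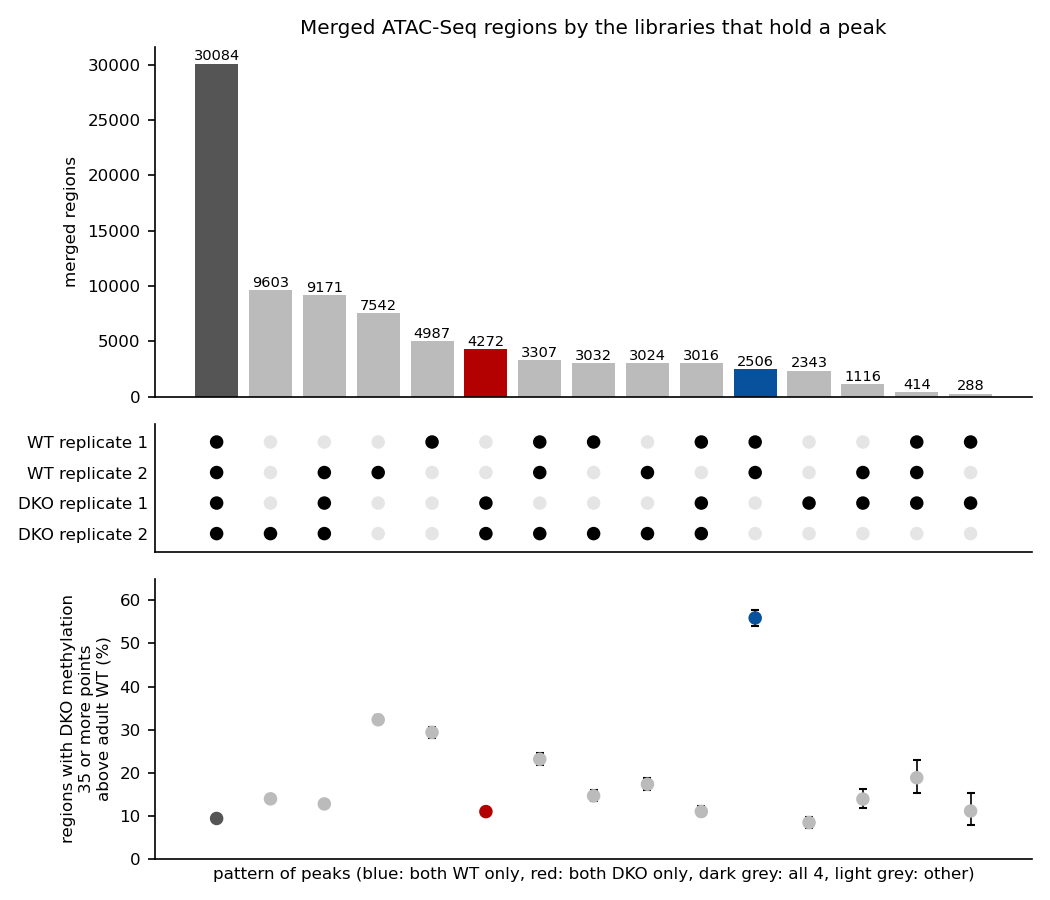
Number of merged ATAC-Seq regions for each of the 15 patterns of presence that occurred (top), the libraries that hold a peak in each pattern (middle, black dots), and the share of regions whose CpG methylation in DKO was at least 35 percentage points above adult WT (bottom, %, with 95% Wilson intervals). The WT-only pattern (blue, 2506 regions) stands at 55.9%, the DKO-only pattern (red, 4272 regions) at 10.9%, and the patterns of a single WT library at 32.3% and 29.3%.

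The same order was seen in patterns of a single library, which do not depend on agreement between replicates. Among regions with a peak in WT replicate 2 alone, 32.3% gained at least 35 points in DKO, and in WT replicate 1 alone 29.3%. For DKO replicate 2 alone the share was 13.9% and for DKO replicate 1 alone 8.39%. The difference between classes was also present within GC content and position. In the highest of 3 groups of GC content 45.2% of WT-only, 4.77% of DKO-only and 3.44% of shared regions gained methylation, and in the lowest 60.6%, 13.2% and 16.9%. In gene bodies the shares were 62.4%, 13.1% and 15.1%, between genes 57.9%, 9.76% and 13.0%, and in promoters 21.6%, 3.91% and 0.952%.

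Taken from the side of methylation, peaks were fewer in DKO at the regions with the largest gain. At the 7030 regions where DKO methylation was 50 points or more above adult WT, 58.0% and 70.6% had a peak in the WT libraries and 32.0% and 49.8% in the DKO libraries, so that both DKO libraries lay under both WT libraries. The mean difference was −23.4 points (exact permutation test, p = 0.333, the smallest possible). Of these regions 1031 (14.7%) were WT-only and 171 (2.43%) DKO-only. Where the gain was 35 to 50 points, the genotypes overlapped (53.2% and 67.5% in WT, 45.9% and 66.8% in DKO), as they did at the 46367 regions whose methylation differed by less than 10 points (62.8% and 70.0%, against 67.1% and 82.9%). A selection by postnatal course is no separate check, since 7386 of the 8068 regions below also gained at least 35 points in DKO. At 8068 regions that lost 35 points or more between newborn and adult WT, peaks were present at 54.8% and 72.1% in WT and at 37.1% and 53.0% in DKO (exact p = 0.333), whereas at 23986 regions under 5% at both ages they were present at 78.0% and 77.9% in WT and at 75.8% and 87.8% in DKO.

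**Figure D2:**
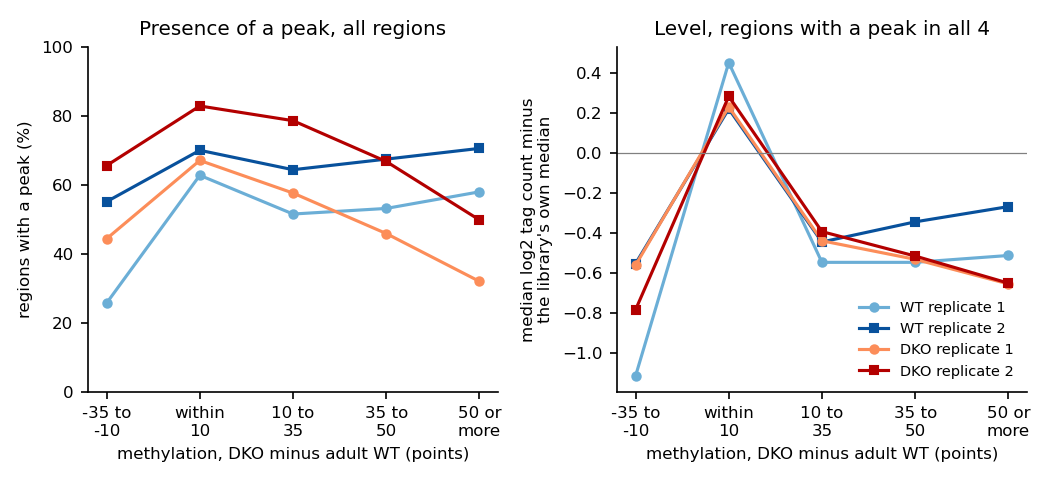
Left, share of merged regions with a peak in each library (%), by the difference in CpG methylation between DKO and adult WT in percentage points. Right, for regions with a peak in all 4 libraries, the median log2 tag count minus the library's own median over these regions. Lines join the bins of 1 library. At a gain of 50 points or more, DKO libraries hold peaks at 32.0% and 49.8% of regions and WT libraries at 58.0% and 70.6%.

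Peak heights were then compared over the regions with a peak in all 4 libraries. Relative to each library's own median, the median log2 tag count in the bin of 50 points or more was −0.51 and −0.27 in WT and −0.66 and −0.65 in DKO (1284 regions, exact p = 0.333), so DKO lay lower. Where the gain was 10 to 35 points it was −0.55 and −0.45 in WT and −0.44 and −0.39 in DKO (5471 regions, exact p = 0.333), so DKO lay higher. In the bin of 35 to 50 points, with −0.55 and −0.35 in WT and −0.53 and −0.52 in DKO, the genotypes overlapped. In the bin within 10 points it was 0.45 and 0.22 in WT and 0.23 and 0.28 in DKO, with overlap.

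WT-only and DKO-only regions differed in place and composition. Promoters held 12.3% of WT-only regions, 6.93% of DKO-only regions and 36.2% of regions with all 4 peaks, while gene bodies held 54.5%, 47.9% and 34.5% and the stretches between genes 33.1%, 45.2% and 29.3%. The median GC content of the 200 bp at the centre was 53% in WT-only, 46.5% in DKO-only and 54.5% in shared regions. DKO-only regions were poor in CpG. In 25.0% of them the window held none, against 2.79% of WT-only and 6.85% of shared regions. GC content also differed between the libraries as a whole, at a median of 53% and 51.5% for peaks of the WT libraries and 50.5% in both DKO libraries (exact permutation test, p = 0.333), and the part of this difference in the composition of the classes was not tested.

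Many of the strongest regions of either class were neighbours of each other. All 10 WT-only regions with the highest tag counts in the promoter or body of a protein-coding gene lay within 434 bp of a DKO peak, and the 10 highest DKO-only regions within 405 bp of a WT peak. The highest of all was at Gm10800, a predicted gene, with 232.7 and 282.2 tags and with methylation of 80.9% in newborn, 83.5% in adult WT and 74.2% in DKO. It had 34% GC and overlapped no H3K27ac or H3K4me1 peak of either genotype, and whether it is an open site was not tested. At Mon1b, of the MON1 family in vesicle trafficking, the WT peaks (72.2 and 65.9 tags) ended 49 bp from the DKO peaks (64.5 and 67.6). At Phlpp1, a phosphatase that removes phosphate from AKT, the gap between the WT peak (68.0 and 52.4) and the DKO peak (61.7 and 63.2) was 56 bp. The promoter of Nub1, a regulator of NEDD8, held a WT peak of 51.7 and 41.2 and, 2 bp away, a DKO peak of 31.1 and 38.6. Aco1 (159 bp), Usp53 (15 bp) and Setd5 (160 bp) were on both lists in the same way. The WT-only peak at the start of Gsk3b, the kinase that phosphorylates glycogen synthase, was the highest of any promoter in the class (111 and 39.0) and lay 207 bp from a DKO peak. At such promoters both genotypes had a peak, and the peaks did not overlap. Each list holds peaks of a single width, and whether such a pair is 1 open site whose centre was placed differently was not tested.

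Distance to the nearest peak of the other genotype was therefore recorded for every region, a step added after these values were seen. Of the WT-only regions, 783 lay within 1 kb of a DKO peak and 1723 had none within 1 kb. Of the DKO-only regions, 616 and 3656 did so. The methylation gain of WT-only regions rose with this distance, from 19.2% of the regions within 100 bp of a DKO peak to 24.4%, 43.2%, 56.6% and 66.2% in the next bins and 62.1% beyond 5000 bp. In DKO-only regions it was between 7.69% and 14.9% in every bin. WT-only regions with no DKO peak within 1 kb, called isolated from here on, gained 35 points at 63.9% (61.6 to 66.2) and lay in promoters at 8.13%, against 38.2% and 21.6% for the others. In the isolated regions methylation went from 56.8% in newborn to 23.2% in adult WT, with 66.0% in DKO.

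**Figure D3:**
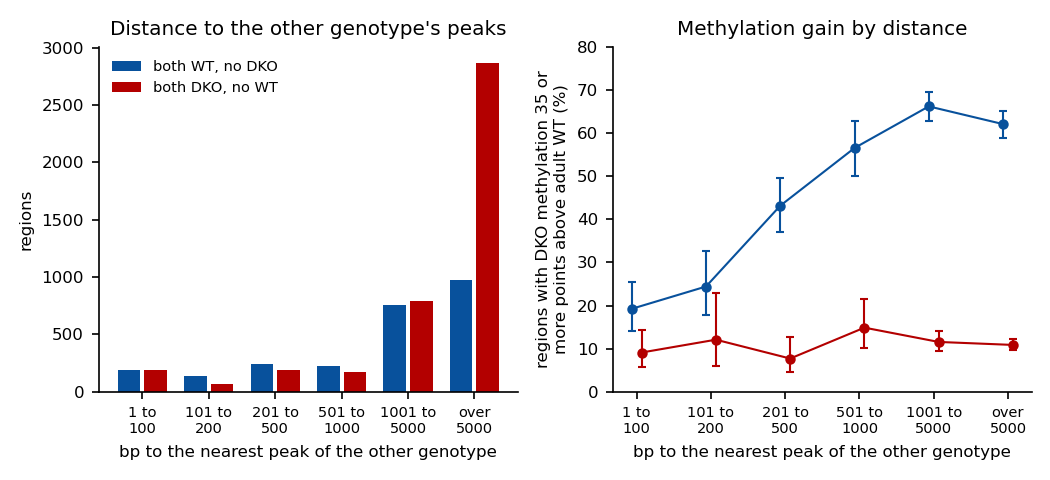
Left, number of WT-only (blue) and DKO-only (red) regions by the distance to the nearest peak of the other genotype, in bp. Right, share of these regions with DKO methylation at least 35 points above adult WT (%, with 95% Wilson intervals). The share in WT-only regions rises from 19.2% within 100 bp to 66.2% beyond 1000 and up to 5000 bp, and that of DKO-only regions stays between 7.69% and 14.9%.

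The 10 isolated WT-only regions with the highest tag counts in a protein-coding gene gave the clearest single cases. In 8 of the 10, methylation in DKO was at least 35 points above adult WT. Of the 9 genes with a tested RNA, 8 were lower in DKO and 0 higher (limma on log2(FPKM + 1), Benjamini-Hochberg adjusted p under 0.05), where 15.7% of all 11092 tested genes were lower and 4.26% higher. Isolation was a rule added after the values were seen, so this count is a description.

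Prodh encodes proline dehydrogenase, which starts the breakdown of proline. Its region at chr16:18083519-18083763, in an intron, held WT peaks of 31.0 and 11.6 tags, and the nearest DKO peak was 5391 bp away. Prodh RNA measured 73.0, 58.2 and 63.2 FPKM in the controls and 9.34, 9.52 and 8.94 FPKM in DKO. The groups did not overlap, and the difference on the log2(FPKM + 1) scale was −2.68 ± 0.17 (SE, n = 3 and 3, limma adjusted p = 4.72e-07).

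Zc3h12d, a zinc finger protein of the Regnase family of RNA-degrading proteins, had WT peaks of 17.0 and 20.2 at chr10:7559470-7559612 in an intron. Methylation there was 95.3% in newborn, 2.53% in adult WT and 89.8% in DKO, the largest gain of the 10. Its RNA was low, at 1.08, 0.997 and 1.16 FPKM in controls and 0.457, 0.412 and 0.422 FPKM in DKO (log2 difference −0.54 ± 0.07 SE, limma adjusted p = 0.000135).

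A coding exon of Zap70, the tyrosine kinase of T cell receptor signalling, held WT peaks of 20.1 and 14.6 at chr1:36837764-36837935 and went from 88.5% to 6.91% methylation in WT, with 63.7% in DKO. Zap70 RNA fell from 1.37, 1.62 and 2.80 FPKM to 0.180, 0.0451 and 0.207 FPKM (log2 difference −1.33 ± 0.16, limma adjusted p = 0.000127). Another T cell gene, Cd4, had 3 WT-only regions, all isolated, of which the highest (9.06 and 6.46) stood at 78.0%, 33.0% and 73.3% methylation in newborn, adult WT and DKO. Cd4 RNA was at 0.494, 0.285 and 0.388 FPKM in controls and 0.103, 0.0526 and 0.00161 FPKM in DKO, too low to be tested. Of the 10 regions at the 12 lymphocyte markers, 3 (30%) were WT-only, all at Cd4, against 3.17% over every protein-coding gene. Summed promoter tag counts of these markers were 0 in both WT libraries and in DKO replicate 1 and 2.77 in DKO replicate 2. Whether the Zap70 and Cd4 regions come from lymphocytes was not tested. Cd3e, Cd3d and Cd79a had no promoter peak in any library.

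The other genes of this group had metabolic or regulatory roles. An intron of Pmpcb, a subunit of the mitochondrial processing peptidase, held WT peaks of 11.8 and 21.6 (methylation 67.1%, 3.77% and 75.0% in newborn, adult WT and DKO). Gas2, a cytoskeletal protein, held 8.86 and 19.0 (79.2%, 3.45% and 81.4%), and Tgds, a sugar nucleotide dehydratase, 10.3 and 17.3 (63.9%, 3.85% and 78.4%). At the splicing regulator Mbnl2 (11.6 and 16.9) adult WT was still at 45.3%, against 90.2% in DKO. RNA of these 4 genes fell in DKO, with log2 differences of −0.57 ± 0.16, −0.86 ± 0.28, −0.70 ± 0.16 and −0.49 ± 0.13 (SE) and limma adjusted p of 0.0261, 0.0444, 0.00936 and 0.0185.

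Smcr7, a regulator of mitochondrial dynamics, had WT peaks of 21.4 and 8.12 and 0% methylation in adult WT against 66.7% in DKO, and its RNA was not tested. The 2 regions without a gain of 35 points were in Trim8 and Foxa1. Trim8, a ubiquitin ligase, had a promoter peak of 37.3 and 9.69 with under 2% methylation in all 3 WGBS libraries and RNA that fell by 0.62 ± 0.13 (limma adjusted p = 0.00635). Foxa1, a pioneer factor of the liver, had an intron peak of 17.0 and 19.7 with 4.28% methylation in adult WT and 16.2% in DKO. Its RNA stood at 4.83 FPKM in controls and 7.80 FPKM in DKO and did not pass the test (0.60 ± 0.31, limma adjusted p = 0.181).

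**Figure D4:**
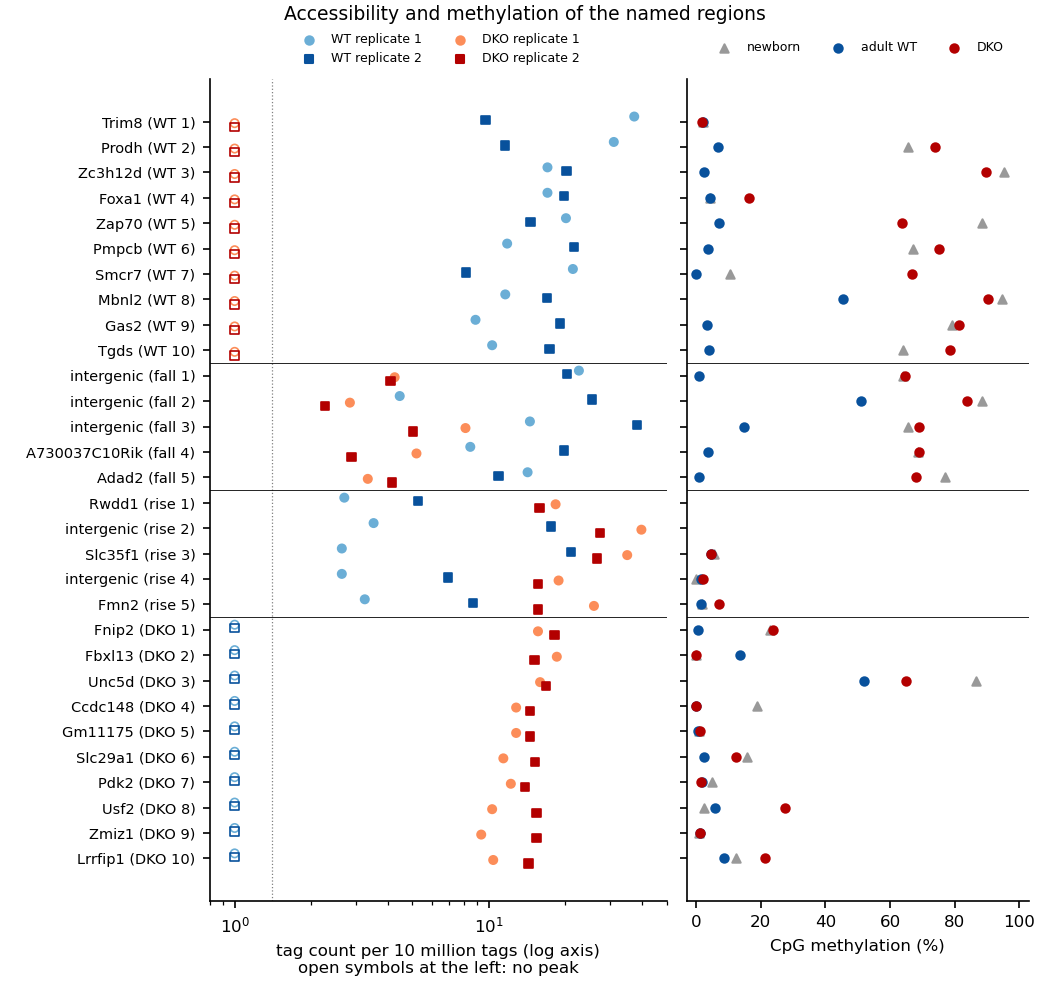
Left, tag count of each library, scaled to 10000000 tags (log axis, open symbols for no peak) at the 10 highest isolated WT-only regions, the 5 largest falls and 5 largest rises among regions with all 4 peaks, and the 10 highest isolated DKO-only regions, each named by its gene or as intergenic. Right, CpG methylation (%) of the same regions in newborn WT, adult WT and DKO. Prodh stands at 6.72% in adult WT and 73.9% in DKO, and 8 of the 10 isolated WT-only regions gain 35 points or more against 0 of the 10 isolated DKO-only regions.

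The 10 highest isolated DKO-only regions had no gain of 35 points, and of the 6 genes with a tested RNA 2 were lower in DKO and 0 higher, against 15.7% and 4.26% of every gene tested. The highest lay in an intron of Fnip2, a folliculin-interacting protein (15.6 and 18.1 tags in DKO), at 22.8%, 0.617% and 23.6% methylation in newborn, adult WT and DKO. Unc5d, a netrin receptor with RNA of at most 0.0114 FPKM in these libraries, held 15.9 and 16.8. Slc29a1, a nucleoside transporter, had a promoter peak of 11.4 and 15.2, and its RNA fell from 83.8, 100.3 and 98.4 FPKM to 32.8, 43.3 and 49.1 FPKM (−1.17 ± 0.20, limma adjusted p = 0.00186). Pdk2, a kinase that inhibits pyruvate dehydrogenase, held 12.2 and 13.9, with RNA lower by a log2 difference of −0.61 ± 0.19 (limma adjusted p = 0.0362). The remaining regions were in Fbxl13, Ccdc148, Usf2, Zmiz1 and Lrrfip1 and upstream of Jund and its neighbour Gm11175, with DKO tag counts between 9.33 and 18.5.

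Tag counts were then compared across the 30084 regions with a peak in all 4 libraries. By limma, 0 regions were lower in DKO (0% of those tested) and 0 were higher (0%), with a lowest adjusted p of 0.925. At an unadjusted p under 0.05, 299 were lower and 955 higher. Median log2 tag counts of the libraries were 2.98 and 3.12 in WT and 3.23 and 3.42 in DKO. The DKO libraries thus lay higher as a whole by 0.27 (exact permutation test, p = 0.333), and the median of the fitted differences was 0.20. These tag counts are not divided by peak width, which differed between the lists. Per bp of peak width, added after the data were seen, the 2 values were 0.026 and −0.045. At an unadjusted p under 0.05, 369 regions were then lower and 48 higher by limma. On the deposited scale both WT libraries exceeded both DKO libraries at 2492 regions (8.28%) and the reverse held at 7507 (25%). After each library was centred on its median the order turned, with 6480 regions of the first kind and 3498 of the second and with 934 lower and 202 higher at an unadjusted p under 0.05. Directions are therefore given relative to the medians.

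Differences of at least 2-fold between all WT and all DKO libraries were rare, and their balance depended on the scaling. After centring, both WT libraries were at least 2-fold over both DKO libraries at 76 regions (0.253% of those tested), and the reverse was found at 11 (0.0366%). On the deposited scale, added after the data were seen, the counts were 17 (0.0565%) and 77 (0.256%). Of the 75 centred falls with a WGBS value, 42 (56%) gained at least 35 points of methylation in DKO, against 12.5% of 8 rises and 9.34% of every tested region. On the deposited scale the gain was found at 70.6% of 17 falls and 14.3% of 70 rises. On average the centred falls stood at 8.14% methylation in adult WT and 45.4% in DKO.

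The largest falls and rises are described without a call, since none passed the test. The largest fall, the intergenic region chr16:10347744-10347959 whose sequence is given at the start, had 22.6 and 20.3 tags in WT and 4.26 and 4.10 in DKO, a log2 difference of −2.36 ± 0.53 (SE, limma adjusted p = 0.925) or −2.56 relative to the median. It overlapped an H3K27ac peak of WT and none of DKO. The other 4 lay on chromosomes 15 and 16, in an intron of A730037C10Rik and just past the end of Adad2, where WT stood at 14.2 and 10.9 and DKO at 3.34 and 4.16, with methylation of 0.794% in adult WT and 67.9% in DKO. In 4 of the 5 falls the methylation gain was over 50 points, and in the remaining one it was 32.7 points.

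The largest rise was in an intron of Rwdd1, at 2.70 and 5.26 in WT and 18.3 and 15.8 in DKO, a log2 difference of 2.17 ± 0.55 (limma adjusted p = 0.925) or 1.97 relative to the median. A rise at the promoter of Slc35f1, a member of a solute carrier family, rested on WT replicate 1 (2.64, against 21.1 in WT replicate 2 and 35 and 26.6 in DKO). Slc35f1 RNA rose from at most 0.0291 FPKM in the controls to 1.76, 1.13 and 1.08 FPKM in DKO (log2 difference 1.18 ± 0.08, limma adjusted p = 7.88e-07). In all 5 rises WT replicate 1 was the lowest library.

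The WT libraries differed from each other more than the DKO libraries did. The SD within a genotype, taken over these regions from the log2 difference of its 2 libraries, was 0.64 in WT and 0.30 in DKO. Leaving out a WT library leaves 1 in that arm, and the spread then comes from the DKO pair alone, so the following calls compare single WT libraries with the DKO pair and are no test of genotype. Without WT replicate 1, limma called 41 of 39255 regions lower and 5 higher, and 33 of the 41 (80.5%) gained at least 35 points against 10.1% of those tested. Without WT replicate 2 it called 839 lower and 3519 higher of 33100, and the lower ones were rich in GC (66.5%) and promoters (70.7%) with a gain at 7.60%. The 2 sets of lower regions shared 4.

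Peaks of histone marks and of HNF6 at the same regions differed between the WT and DKO lists by class. H3K27ac, a mark of active enhancers and promoters, covered 53.0% of WT-only regions in the WT list and 41.0% in the DKO list. In isolated WT-only regions these shares were 46.9% and 30.5%. In the other direction, DKO-only regions stood at 20.0% and 28.7% and regions with all 4 ATAC peaks at 57.6% and 66.2%. H3K4me1, which marks enhancers, covered 71.1% of WT-only regions in WT and 55.1% in DKO, 73.9% and 49.4% of the isolated ones, 46.5% and 60.0% of DKO-only regions and 55.0% and 61.3% of shared regions. The DKO lists were longer, at 46782 and 77859 peaks against 43085 and 70466 in WT. With 1 library per mark and genotype these differences have no replicate check.

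HNF6, a hepatocyte transcription factor, had peaks in both libraries of a genotype at 2.71% of WT-only regions in WT and 2.04% in DKO (isolated ones 2.90% and 1.74%), against 1.85% and 5.52% of DKO-only regions and 4.24% and 8.60% of shared regions. The HNF6 lists held 4387 and 9355 peaks in WT and 9305 and 34665 in DKO, so a rise is seen over every region as well (2.98% to 5.99%). The share of WT-only regions did not rise with it, and by single library it was 3.23% and 4.87% in WT and 2.11% and 4.75% in DKO, so the genotypes overlapped. The intervals of the shares in both libraries (2.15 to 3.43 in WT and 1.55 to 2.67 in DKO) overlapped too. 5hmC peaks, which came from WT hepatocytes of younger mice, covered 17.1% of WT-only regions, 8.54% of DKO-only regions, 7.91% of shared regions and 9.29% of every region.

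**Figure D5:**
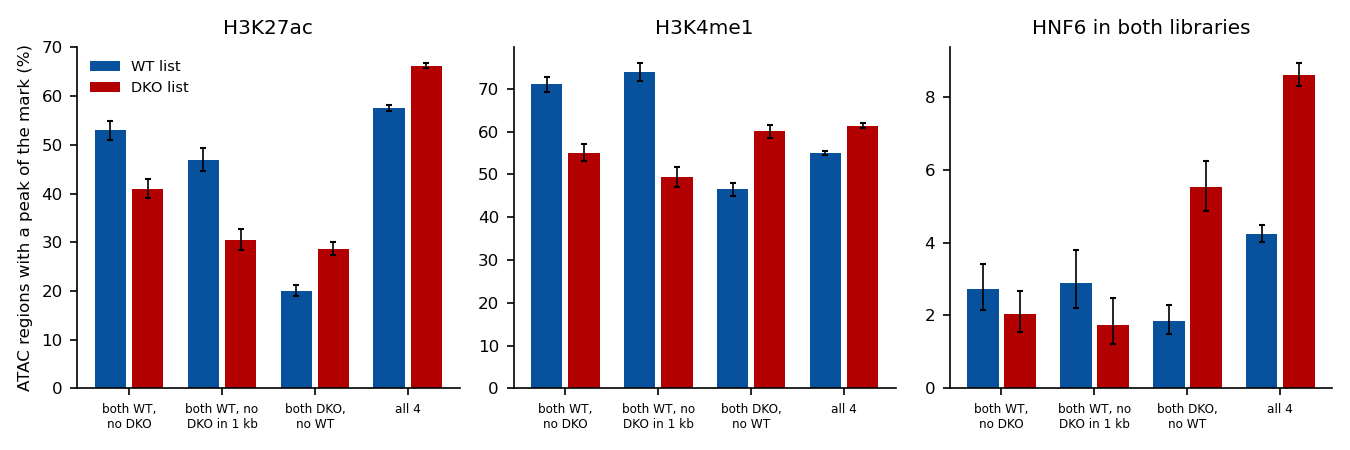
Share of ATAC-Seq regions (%) that overlap a peak of H3K27ac, of H3K4me1 or, in both libraries of a genotype, of HNF6, for the WT lists (blue) and DKO lists (red), with 95% Wilson intervals for the counting of regions. H3K4me1 goes from 73.9% to 49.4% in WT-only regions with no DKO peak within 1 kb and from 46.5% to 60.0% in DKO-only regions.

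Short factor motifs were counted on both strands of the 200 bp around each centre. ATCGAT, the form of the HNF6 motif with a CpG, was in 2.19% of WT-only (1.69 to 2.85) and 0.796% of DKO-only regions (0.570 to 1.11), against 1.30% of every region, whereas ATTGAT, without a CpG, was in 6.46% and 12.2%, against 9.12%. The E-box CACGTG was in 6.50% of WT-only and 3.04% of DKO-only regions (4.50% of every region). The nuclear receptor half-site AGGTCA was in 22.9% and 23.9% (20.1% of every region), and in 28.0% of the WT-only regions that gained 35 points. The ETS motif CCGGAA was in 5.55% and 2.22%, against 11.3% of shared regions. The HNF4A motif was in 0.878% and 2.08% (1.46% of every region), FOXA in 4.51% and 6.62% (5.21%), C/EBP in 11.6% and 14.4% (12.4%). CTCF was in 5.11% and 8.50% (7.49%), AP-1 in 7.74% and 7.98% (7.26%), NF-Y in 25.6% and 26.7% (27.1%). With a CpG, NRF1 was in 1.04% and 0.398% (2.26%), the CRE motif in 1.04% and 0.211% (0.835%), C/EBP in 0.160% and 0.0234% (0.178%). The classes differ in CpG and GC content, as given earlier, and the part of this in the motif counts was not tested.

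Genes were then described by the regions in their promoter or body. Of 968 tested genes with a WT-only region, 228 (23.6%) were lower in DKO and 30 (3.10%) higher, against 15.7% and 4.26% of every gene tested. Of 1085 genes with a DKO-only region 182 (16.8%) were lower and 50 (4.61%) higher, and of 7875 genes with regions of neither kind 15.8% were lower. The share of lower genes was 26.0% with an isolated WT-only region (174 of 670), 31.1% with at least 2 WT-only regions (56 of 180) and 46.3% with at least 3 (19 of 41). The median log2 difference was −0.22 over genes with a WT-only region and −0.11 over every gene tested. Gene length differed too, with a median of 59.4 kb for genes with a WT-only region, 75.8 kb for those with a DKO-only region and 21.8 kb for every gene tested, and its part was not tested. The number of lower genes with a WT-only region was 228 with all RNA libraries, 136 without the third control and 137 without the first DKO mouse, in the order of the deposited columns. The share of lower genes was then 14.0% and 14.2% with a WT-only region and 5.94% and 6.46% over every gene tested. In a fit of the 2 compared RNA groups alone, 21.9% of 898 tested genes with a WT-only region were lower and 3.23% higher. Over the 9863 genes of that fit the shares were 12.5% and 3.85%.

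Itpr1, the inositol trisphosphate receptor that releases calcium from the endoplasmic reticulum, had 6 WT-only and 2 DKO-only of 44 regions, and 5 of the 6 gained at least 35 points. Its RNA was 6.42, 6.24 and 5.54 FPKM in controls and 4.89, 2.70 and 4.53 FPKM in DKO (−0.51 ± 0.16, limma adjusted p = 0.0408). Nek6, a kinase of mitosis, had 4 WT-only and 0 DKO-only of 11 regions and RNA lower by −0.59 ± 0.13 (adjusted p = 0.00725, limma). Farp1 had 4 and 0 of 22 (−0.83 ± 0.11, adjusted p = 0.000191, limma), and the RNA-binding protein Rbpms 4 and 0 of 21, with RNA that did not pass (−0.41 ± 0.17, adjusted p = 0.0995, limma).

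Lhpp, a phosphohistidine phosphatase, showed the largest change of RNA among the genes with most WT-only regions. It had 4 WT-only, 2 DKO-only and 1 shared of 13 regions. Its RNA was 17.3, 10.5 and 23.6 FPKM in controls and 0.583, 0.659 and 0.585 FPKM in DKO (−3.43 ± 0.41, limma adjusted p = 9.64e-05), with no overlap. Lhpp lies inside the annotated span of Fgfr2, of 3009 kb in this annotation, so the 8 WT-only and 6 DKO-only regions counted for Fgfr2 include those of other genes, as do those of Gm20388 with 4435 kb. RNA of Fgfr2 itself rose in DKO, from a mean of 9.10 to 15.3 FPKM (0.69 ± 0.20, limma adjusted p = 0.0255). Pde4d, a cAMP phosphodiesterase, had most DKO-only regions, 9 of 88, and also 4 WT-only ones. Unc5d had 8 DKO-only of 10 regions and 0 WT-only, and Smyd3, Dip2c and Fbxw7 had 6, 6 and 5 DKO-only and 0 WT-only.

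Genes were also grouped by function into 14 lists. Over every protein-coding gene 3.17% of regions in promoter or body were WT-only and 4.36% DKO-only. Of 155 regions at 22 liver transcription factors, 13 (8.39%) were WT-only and 3 (1.94%) DKO-only, in 12 and 3 of the genes, and 7 of the 13 were isolated and 6 gained at least 35 points. At the bile acid regulated repressor Nr0b2 the WT-only promoter peak (19.9 and 7.29) was 12 bp from a DKO peak, and at the pioneer factor Foxa2 (17.4 and 9.32) the distance was 528 bp. Ppara, the receptor that turns on fatty acid oxidation, had an isolated intron peak (9.60 and 6.55) with 0% methylation in adult WT and 31.1% in DKO. By RNA 8 of the 22 were lower in DKO and 0 higher, where 15.7% and 4.26% of every gene tested and 9 and 0 of 20 housekeeping genes were, though none of Foxa1, Foxa2, Nr0b2 and Ppara passed.

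Glucose and insulin genes had 10 WT-only (7.30%) and 4 DKO-only (2.92%) of 137 regions, at 8 and 4 of 25 genes, and 7 of the 10 gained methylation. Irs1, the insulin receptor substrate, had a WT-only peak of 23.0 and 20.3 that was 192 bp from a DKO peak. At Pck1, which makes phosphoenolpyruvate in gluconeogenesis, a WT-only peak just past the end of the gene (17.6 and 10.5, 32 bp from a DKO peak) stood at 4.35% methylation in adult WT and 46.6% in DKO, and Pck1 RNA at 1302 and 849 FPKM did not pass the test (−0.67 ± 0.27, limma adjusted p = 0.0947). Gpd2, the mitochondrial glycerol phosphate dehydrogenase (8.52 and 10.9), stood at 17.0% and 61.2%, with no change of RNA called. Fto, an RNA demethylase gene (9.06 and 4.62), stood at 5.58% and 49.0%, and its RNA was lower in DKO with a log2 difference of −0.54 ± 0.12 (limma adjusted p = 0.00786). Insr, the insulin receptor, had 1 DKO-only region (3.34 and 3.88) and 0 WT-only of 11. Of the other genes the study names, Lpin1 had 3 regions and none of either class, and Fabp6 had 0 regions.

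Lipid genes had 8 WT-only (5.16%) and 4 DKO-only (2.58%) of 155 regions. An intron of the fatty acid elongase Elovl6 held WT-only peaks of 6.42 and 9.42 at 84.9%, 5.73% and 83.2% methylation in newborn, adult WT and DKO, and Elovl6 RNA rose from a mean of 11.1 to 29.2 FPKM (1.31 ± 0.17, limma adjusted p = 0.000233), against the direction of accessibility. Fabp1, the liver fatty acid binding protein, had a DKO-only promoter peak (7.54 and 11.6) and RNA that fell (−0.74 ± 0.24, limma adjusted p = 0.0457).

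Genes of the perivenous zone had 3 WT-only and 2 DKO-only of 78 regions. Gulo, the last enzyme of vitamin C synthesis, had isolated WT-only peaks of 6.56 and 3.78 in an intron at 7.52% methylation in adult WT and 62.0% in DKO, and its RNA fell from a mean of 135 to 30.9 FPKM (−2.12 ± 0.30, limma adjusted p = 0.000455). Slc1a2, a glutamate transporter, had 1 WT-only and 2 DKO-only regions and fell from 23.9 to 1.23 FPKM (limma adjusted p = 0.000668). Of the 19 genes with a tested RNA 14 were lower and 0 higher, against 15.7% and 4.26% of every gene tested and 9 and 0 of 20 housekeeping genes.

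Plasma protein and clotting genes held 2 WT-only and 5 DKO-only of 101 regions, and acute-phase and complement genes 2 and 2 of 59. A promoter peak between F7 and F10 (18.4 and 9.69, 864 bp from a DKO peak) went from 66.4% in newborn to 5.00% in adult WT, with 82.6% in DKO. RNA of F7 rose (0.63 ± 0.10, limma adjusted p = 0.00129) and that of F10 did not pass. The promoter of the iron hormone Hamp had WT-only peaks of 14.9 and 3.88 at 44.6%, 1.56% and 56.5% methylation, with RNA of 262 and 434 FPKM that did not pass the test (limma adjusted p = 0.663). F11 had a DKO-only promoter peak (7.29 and 9.64) and RNA that rose (0.55, limma adjusted p = 0.00625).

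In the growth hormone list, with 5 WT-only and 8 DKO-only of 134 regions, Igf1 had an isolated WT-only peak (9.20 and 7.02) at 90.7%, 12.3% and 70.8% methylation, and its RNA fell from 101 to 63.3 FPKM (−0.65 ± 0.20, limma adjusted p = 0.0336). Socs2 also had an isolated WT-only peak (6.63 and 3.69), at 15.0%, 4.41% and 57.6% methylation. Its RNA stood at 3.03 FPKM in controls and 15.0 FPKM in DKO and did not pass the test (2.03 ± 0.78, limma adjusted p = 0.0818). Cish had a DKO-only promoter peak (7.41 and 9.03) and RNA of 5.99 and 20.6 FPKM that did not pass (limma adjusted p = 0.0920). Sult3a1 had a DKO-only peak (7.66 and 5.82) and RNA of at most 0.0956 FPKM. Of P450 genes, Cyp4v3 had an isolated WT-only peak (5.54 in each WT library) at 0% methylation in adult WT and 72.0% in DKO and RNA that fell from 198 to 114 FPKM (limma adjusted p = 0.0228). Cyp2c67 had an isolated WT-only peak (4.46 and 3.05). Cyp4f14 had a WT-only and Cyp4f15 a DKO-only promoter peak, 3 bp and 54 bp from a peak of the other genotype. RNA of Cyp2c67, Cyp4f14 and Cyp4f15 did not pass (limma adjusted p = 0.394, 0.635 and 0.445). The list as a whole held 3 WT-only and 6 DKO-only of 74 regions.

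Bile acid genes held 2 and 4 of 105. Cyp7b1, an oxysterol hydroxylase of bile acid synthesis, had an isolated DKO-only peak (5.74 and 4.32) in an intron and RNA that fell from 109.6 to 29.3 FPKM (−1.88, limma adjusted p = 0.00539). Methylation of this region was 29.0% in newborn, 0% in adult WT and 38.9% in DKO, so the peak was called where methylation was higher. Scp2, the sterol carrier protein, had 1 WT-only and 1 DKO-only region. The DKO-only peak measured 7.04 and 9.97, and Scp2 RNA fell from 1053 to 573 FPKM (limma adjusted p = 0.0327). Urea cycle and periportal genes held 1 and 4 of 62, fetal liver genes 1 and 3 of 40 and housekeeping genes 0 and 2 of 40. The DNA methylation and demethylation enzymes held 2 and 1 of 42. Both WT-only regions of that list were in Dnmt3a, the de novo methyltransferase, and the higher of them (8.72 and 5.54) was at 42.9% methylation in adult WT and 81.3% in DKO. Dnmt3a RNA fell (log2 difference −0.37 ± 0.11, limma adjusted p = 0.0364).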

How the data were processed

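ATAC-Seq of 2 WT and 2 DKO liver samples was analysed from the deposited peak lists. The authors trimmed reads with cutadapt 1.15, aligned them with Bowtie2 2.2.4 to mm9, removed duplicates with SAMtools and mitochondrial reads, and called peaks in each library with HOMER, without an input. Per the file headers, the score is HOMER's peak score and the normalized tag signal is the tags in a peak scaled to a library of 10000000 tags, which is the tag count given here. The authors also deposited WGBS methylation as a fraction per 200 bp tile with at least 15 CpG readings, without coverage and with no X chromosome, so the depth of a methylation value is unknown. Values were taken as percent and averaged over the tiles a region overlaps, which gave 78047 regions a value (92.1%). FPKM were made by the authors with TopHat2 and Cufflinks. 6 of the 24 FPKM columns could not be assigned to a group and were not used.

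Overlapping peaks were merged with python 3.11.15, and the highest peak of a library in a region was its value. Regions with a peak in all 4 libraries were fitted on log2 tag counts with limma 3.58.1 in R 4.3.3 (eBayes with trend, Benjamini-Hochberg at 0.05). These are scaled values and not reads, so no count model was used. RNA was fitted with limma on log2(FPKM + 1) over 18 libraries, keeping genes whose mean reached 1 FPKM in at least 1 group. The fits were run on simulated data with known changes. For tag counts, detection was required only at an even spread smaller than that between the WT libraries. This step does not show how many true changes the main fit would call. Promoters covered the 1 kb before a start and 100 bp after it, and gene bodies went on to 1 kb past the end, from gencode vM1 on NCBIM37 (mm9). Sequences were read from that genome. Windows that overlap an untranslated exon were not printed.

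Named are the 10 highest WT-only and DKO-only regions in protein-coding genes, the 10 genes with most of each, the 5 largest falls and rises with no overlap of genotypes after centring, and in each list up to 4 genes with the highest tag counts, with the genes the study names. The regions isolated by 1 kb were added after the values were seen. The classes, lists and rules were chosen with earlier results of these data known. Intervals are 95% Wilson intervals and cover counting error only. Alternatives were other merging rules, peak sets, scalings and filters, a replicate block, and leaving out each library.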

Additional observations from a re-analysis of the deposited data

How the results depend on the processing

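Presence depends on the libraries and the peaks taken. With each ATAC-Seq library left out in turn, WT-only regions numbered 2920 to 10048 (10048 without WT replicate 1, 7493 without WT replicate 2, 5813 without DKO replicate 2), DKO-only regions 6615 to 13875 (13875 without DKO replicate 1, 13443 without WT replicate 2, 7288 without WT replicate 1, 6615 without DKO replicate 2) and regions in every remaining library 30498 to 39255. The share of WT-only regions with a methylation gain was 37.3% to 50.7% and their promoter share 9.46% to 16.1%, so every such gain share was over the 16.1% of every region. The count of lower genes with a WT-only region was 136 to 483 and of higher ones 10 to 89. The number of tested genes moved with the regions. The highest counts were 483 lower and 86 higher of 2360 tested without WT replicate 1 and 481 and 89 of 2401 without WT replicate 2. Without DKO replicate 2 the counts were 406 and 79 of 2026, against 228 and 30 of 968 with all libraries. Over every gene tested with all RNA libraries 15.7% were lower and 4.26% higher. The lowest were without 1 RNA library, at 136 lower and 10 higher of 968 without the third control and 137 and 15 of 968 without the first DKO mouse. Over every gene tested 5.94% were then lower and 1.95% higher, and 6.46% and 2.46%. Without the first control 18 of 967 were higher and without the third DKO mouse 18 of 969, against 3.02% and 3.10% of every gene tested. With the 50% of peaks of highest score, 764 regions were WT-only, 1369 DKO-only and 14900 shared. The WT-only ones had a gain at 53.9% and promoters at 23.8%, with 108 lower and 13 higher of 387 tested genes. With the same number of peaks in each library 2406 were DKO-only. The gain share was 58.6% with peaks up to 100 bp apart merged, 41.3% with an overlap of at least 100 bp (promoters 17.98%), 63.5% at a limit of 25 points and 58.5% by the tile at the centre. Promoters of protein-coding transcripts held 9.54%, and an HNF6 peak in at least 1 WT library was at 5.39%. The isolated regions, added after the data were seen, gave 63.9%, 8.13% in promoters and 174 lower and 19 higher of 670 tested genes.

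In the limma comparison, leaving out 1 library gave 0 to 839 lower and 0 to 3519 higher regions (41 and 5 without WT replicate 1, 839 and 3519 without WT replicate 2, 0 and 0 without either DKO library; with 1 library in an arm, that library is assumed to vary like the other genotype's), with a median log2 difference of 0.18 to 0.37. That median was 0 after centring, 0.0019 after quantile normalization and 0.026 per bp of peak width. It was 0.13 with a pseudocount of 10 tags and 0.065 in the 50% of regions with the highest mean. Regions of at least 2 libraries were also fitted, with the lowest tag count of a library's list as the value of a missing peak. In that fit 24 were lower and 9 higher, of which 0% gained methylation and 87.5% and 100% lay in promoters. With the replicate number as a block 0 were lower and 0 higher (47 and 235 at an unadjusted p under 0.05). The numbers did not pair the samples, since the deviations of the replicate 1 libraries correlated at −0.67. With crossed numbers, chosen after this was seen, 86 were lower and 91 higher. Centring, quantile normalization, a pseudocount, peak sums, tag counts per bp, autosomes and merging at 100 bp left 0 and 0. No paired analysis was possible for RNA because the columns carry no replicate numbers.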
